A study of Drosophila melanogaster with 6 samples.

Results

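Cytochrome P450 genes were examined in muscle-enriched lysates of *Drosophila melanogaster* larvae after knockdown of Mad. Members were taken by name, as every gene whose symbol consists of Cyp, a family number, a subfamily letter or letters and a gene number, and 80 of the 17807 genes in the table met this rule. Of these 80, 57 reached 10 normalized counts in 3 or more of the 6 libraries and were tested. The P450 genes with names of their own (spo, spok, phm, dib, sad and shd) and the 4 pseudogenes or duplicate copies with a suffix, such as Cyp12d1-p, were not members. Each of the 6 libraries held polyadenylated RNA of the body wall musculature of 6 to 10 pooled larvae in the wandering stage of the third instar, when larvae have stopped feeding and crawl in search of a place to pupariate. In the 3 control knockdown libraries Dmef2-Gal4 drove UAS-mCherryRNAi, and in the 3 Mad knockdown libraries Dmef2-Gal4 drove UAS-madRNAi. Both groups therefore carried the same muscle driver and an RNAi transgene, and the transgenes differed in the gene targeted. Other differences between the RNAi lines, such as genetic background, were not assessed and cannot be told apart from the knockdown. The labels do not say whether the pools of a group came from separate crosses, so p-values measure the spread between these libraries only. Sex was not given.

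P450 enzymes are haem proteins that insert 1 atom of oxygen into a substrate, with electrons passed on from a reductase or, in mitochondria, from a ferredoxin. In insects they fall into the CYP2, CYP3, CYP4 and mitochondrial clans. CYP2 and mitochondrial members include the enzymes that make and clear the moulting hormone 20-hydroxyecdysone. Many CYP3 and some mitochondrial members act on plant toxins and insecticides, mainly in the midgut, Malpighian tubules and fat body, and CYP4 members include the enzyme that finishes cuticular hydrocarbons in oenocytes. Few have a known role in muscle.

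The libraries held from 96639921 to 127220949 recovered gene counts, and the ranges of the groups overlapped. Mad itself was at 7533, 7658 and 7009.7 normalized counts in control libraries 1 to 3 and at 4348, 5643 and 5053 in Mad knockdown libraries 1 to 3. The groups did not overlap. Mad fell by 0.57 on the log2 scale (SE 0.102, adjusted p 0.0440 in limma), a call that was lost under 8 of 18 alternatives. An exact two-sided permutation test gave p = 0.1, the smallest value possible with 3 libraries against 3. All 10 muscle markers were detected. Their summed normalized count was 2784755 to 3750480.3 in controls and 1327826 to 1940436 after Mad knockdown, without overlap. In limma 2 of the 10, Tm2 and Prm, were called lower (background over all tested genes 1.57%). An unadjusted p under 0.05 in limma was reached by 9 of the 10, all lower (background 10.7%). The median log2 fold change of the list was -0.78, and Mef2 was at 0.14 (SE 0.136). The other marker lists held no called gene. Of the markers found, however, only 1 of 8 for the midgut and 2 of 6 for the Malpighian tubule passed the filter, and the rest could not be called. Markers of haemocytes, the blood cells, summed to 93451 to 127498 in controls and to 81959.6 to 89106 after Mad knockdown, without overlap. The members of this list differed in direction. By group means, Hml (29857 in controls, 16278 after Mad knockdown), Pxn (41059 and 33063) and eater (17264 and 15398) were lower. NimC1 (6281 and 9184) and He (4174 and 4495) were higher, and srp was at 6670 and 6665. Midgut markers summed to 38.3 to 134 in controls and to 82.2, 284 and 4355 in Mad knockdown libraries 1 to 3. Library 3 thus stood apart in them, through Jon65Aiii and the trypsin genes, while Jon99Ciii was at 0 in all 6 libraries. Markers of fat body (26534 to 42024 in controls, 21845 to 42288 after Mad knockdown), oenocytes (18379 to 20550.1 and 17044 to 20032), trachea (75345 to 119407 and 43135 to 84633), the epidermis and cuticle (9160929 to 11090251 and 8579482 to 11096077), the prothoracic gland (8029 to 9191 and 8527 to 11205), Malpighian tubules (79.0 to 114.9 and 62.6 to 168) and the nervous system (1492 to 1702 and 1452 to 1744) overlapped between the groups. Most of the prothoracic gland sum was sro, at 7248 to 8598 in controls and 8003 to 10698 after Mad knockdown, so it says little about the scarcer genes of that list. The part of these markers in the results was not tested. In such bulk samples fewer cells of a type and less RNA per cell cannot be told apart.

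The summed level of the family differed between the groups by less than the spread between libraries. All 80 members together took 0.117%, 0.110% and 0.138% of the normalized counts in control libraries 1 to 3 and 0.111%, 0.126% and 0.141% in Mad knockdown libraries 1 to 3. Their sum was 140216 ± 14889 in controls and 141430.3 ± 16204 after Mad knockdown (mean ± SD, n = 3 per group). Cyp4g1 alone made up 44.9% to 53.6% of that sum. Per kilobase of annotated exon, which allows levels of different genes to be compared, Cyp4g1 stood at 29894 normalized counts, followed by Cyp313b1 at 4521, Cyp4e2 at 3836, Cyp6d5 at 3353 and Cyp18a1 at 3200.2. The median over the 57 tested members was 85.9 per kilobase, against 588 over all 10348 tested genes, so most P450 transcripts were scarce in these lysates. Of the 57, 39 had a mean normalized count of at least 100 and 19 of at least 1000.

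**Figure D1:**
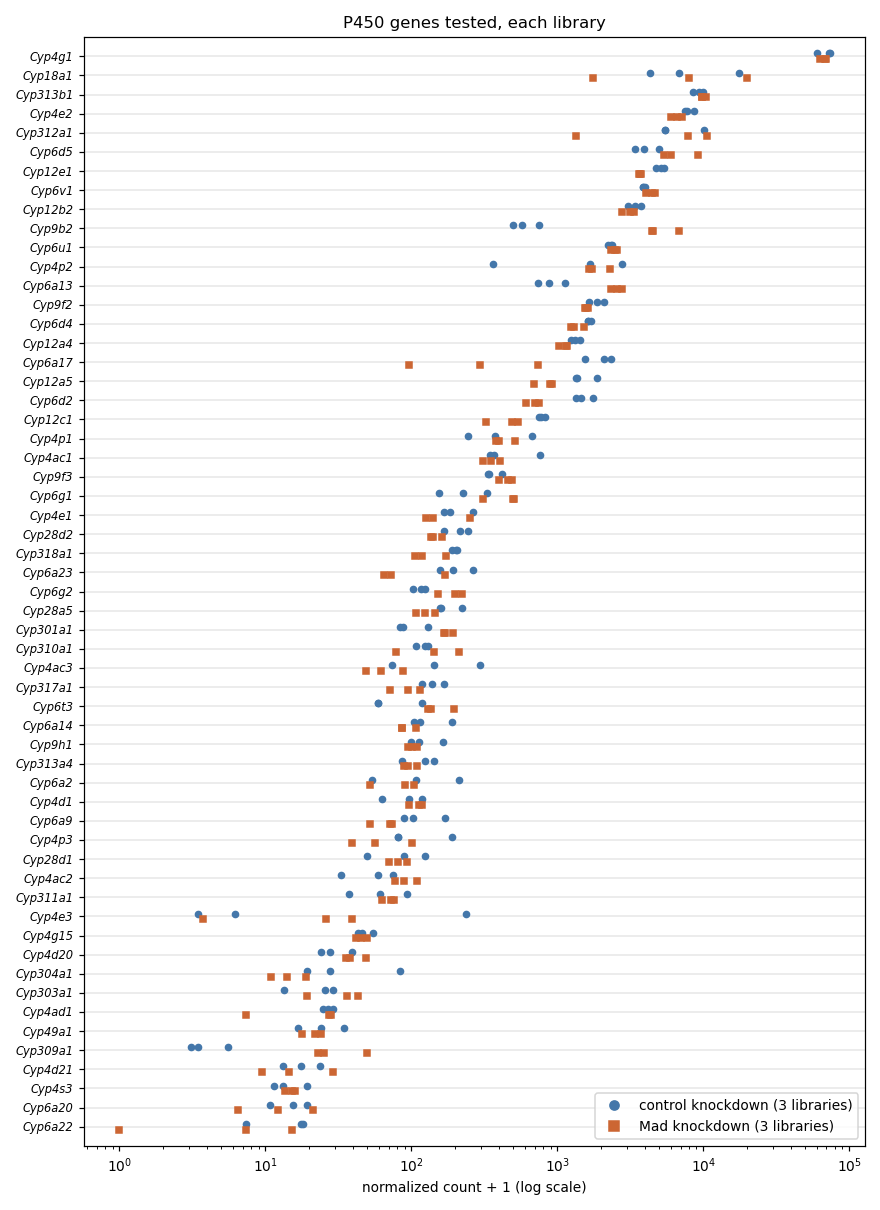
Normalized count + 1 (log scale) of each tested P450 gene in each library, sorted by mean level, with circles for the 3 control knockdown and squares for the 3 Mad knockdown libraries. The levels span from Cyp6a22, at most 17.1, to Cyp4g1, at 60562 to 73617, and Cyp9b2 shows the widest gap between groups among genes above 100.

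Which P450 genes differed after Mad knockdown was asked next. limma called 5 of the 57 tested members, 8.77%, at an adjusted p under 0.05, where 2.59% of all tested genes were called. Cyp9b2, Cyp6a13 and Cyp309a1 rose, 5.26% of the members against 1.02% of all genes, and Cyp6d2 and Cyp12e1 fell, 3.51% against 1.57%. Cyp309a1 passed the filter only through the Mad knockdown libraries, where it was high, so it could be tested only because it differed. The counts of 5 and of 3 higher include it, as do the counts by edgeR and DESeq2 below. The other 4 called genes were above 10 in all 6 libraries. Cyp9b2, Cyp6a13, Cyp309a1 and Cyp6d2 belong to the CYP3 clan, which held 26 of the 57 tested members. Cyp12e1 was the only mitochondrial member called in this fit. No CYP2 or CYP4 gene was called by limma, edgeR or DESeq2. Where no tool is named, called means called by limma with all 6 libraries. edgeR, run on recovered counts, called the same 5 genes (background 2.44%). DESeq2 called these and Cyp12a5, Cyp12c1, Cyp301a1, Cyp6a17, Cyp6d5, Cyp6g1 and Cyp6g2 (21.1%, background 9.64%), with 7 of its 12 higher (12.3%, background 3.78%) and 5 lower (8.77%, background 5.87%). In simulated data, unchanged genes made up 17.4% of all DESeq2 calls and 5.16% of limma calls. DESeq2 calls as a whole were thus less certain there, and calls by DESeq2 alone were not scored separately. Without 1 library the limma count ran from 2, without control replicate 2, to 5, and it was 3 without control replicate 3 or without Mad knockdown replicate 1 or 2.

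Cyp9b2 (FBgn0015039, chromosome 2R, 7130277 to 7132139, minus strand) had 569, 500.3 and 755 normalized counts in control libraries 1 to 3 and 4474, 4562 and 6854 after Mad knockdown. Every Mad knockdown library was thus several times above every control. Cyp9b2 rose 8.71-fold by the ratio of means and by 3.11 on the log2 scale (SE 0.214, adjusted p 0.00198 in limma), and the call was kept under all 18 alternatives. Its tandem neighbour Cyp9b1, with a highest value of 4.88, was near the floor in both groups. The nearest tested genes on its sides were not called: esn had a log2 fold change of 0.32 (SE 0.215) and Spn43Aa of -0.54 (SE 0.190).

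Cyp6a13 (FBgn0033304, chromosome 2R, 8570499 to 8572147, plus strand) had 738, 884 and 1127 normalized counts in the controls and 2332.5, 2569 and 2792 after Mad knockdown. The lowest Mad knockdown library was above the highest control, and the ratio of the means was 2.799. On the log2 scale it rose by 1.502 (SE 0.159, adjusted p 0.00986 in limma). The call was lost in 1 of 18 alternatives, without control replicate 2, at an adjusted p of 0.0622. Cyp6a14, the P450 gene next to it at a distance of 3297 bases, was at 135 ± 46.9 in controls and 92.8 ± 12.3 after Mad knockdown, with a log2 fold change of -0.49 (SE 0.264) that did not pass. CG42326, on the other side, differed by less than its error, with a log2 fold change of -0.03 (SE 0.122).

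Cyp309a1 (FBgn0031432, chromosome 2L, 2562483 to 2564830, minus strand) was the scarcest gene called. Its libraries held 2, 2 and 5 recovered counts in controls and 52, 24 and 24 after Mad knockdown, which are 2.44, 2.08 and 4.56 against 48.6, 21.8 and 24.2 normalized counts. The groups were far apart, but the size of the change rests on the pseudocount. Its log2 fold change was 2.97 (SE 0.511, adjusted p 0.0394 in limma) at a pseudocount of 1, 3.15 at 0.5 and 2.13 at 5. No control library reached the filter's 10 normalized counts, so this p describes a gene that had to differ to be tested. The call was lost without each control replicate in turn, at adjusted p-values from 0.0887 to 0.117, and without any Mad knockdown replicate the gene failed the filter. Its tandem partner Cyp309a2 reached at most 2.44 in any library.

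Cyp6d2 (FBgn0034756, chromosome 2R, 22652573 to 22654530, minus strand), linked in flies to tolerance of the plant alkaloid camptothecin, had 1458, 1338 and 1759 normalized counts in controls and 699, 754 and 613 after Mad knockdown. All Mad knockdown libraries lay below all controls, at a ratio of means of 0.454. It fell by 1.13 on the log2 scale (SE 0.130, adjusted p 0.0122 in limma), and the call was kept in all 6 fits that left out 1 library. Exons of nsr on the opposite strand cover 51.0% of its exons, and nsr was counted at 13.1 to 24.4 normalized counts. Both flanking genes had log2 fold changes below 0 without being called, CG3746 at -0.59 (SE 0.219, adjusted p 0.214) and CG30196 at -0.56 (SE 0.158, adjusted p 0.123). Whether reads were counted by strand is not given in the sources used here. The part of read assignment in the counts of Cyp6d2 and nsr was not tested.

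Cyp12e1 (FBgn0037817, chromosome 3R, 10434789 to 10436704, plus strand) encodes a P450 of the mitochondrial clan. Its normalized counts were 4788, 5106 and 5401 in controls and 3682, 3616 and 3744 after Mad knockdown. The change was small against the other called genes, with a ratio of means of 0.722, but replicates were tight and the groups did not overlap. It fell by 0.47 on the log2 scale (SE 0.0633, adjusted p 0.0192 in limma). The call was lost without a trend in the variance, at an adjusted p of 0.0574, and in 4 of the 6 fits that left out 1 library, at 0.0620 to 0.0860 (control replicate 2 or 3, or Mad knockdown replicate 1 or 2 left out).

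**Figure D2:**
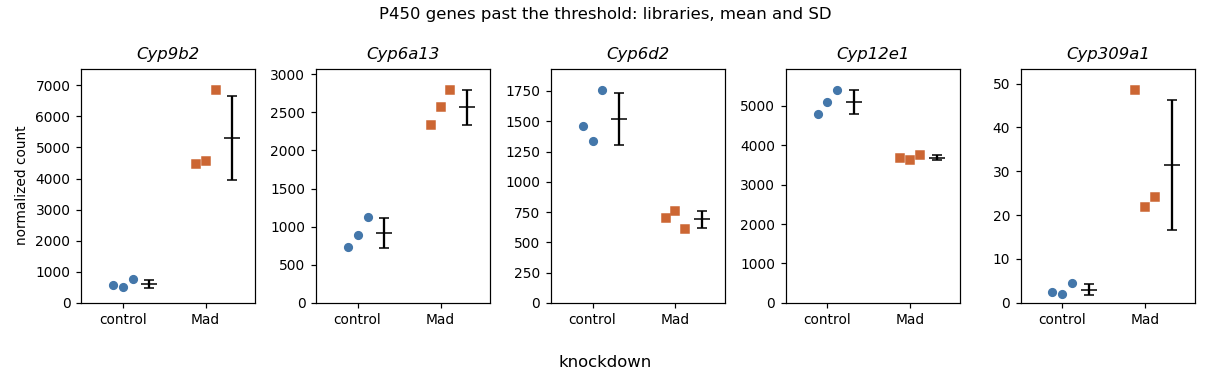
Normalized counts of the 5 called P450 genes in each library, control knockdown (circles) and Mad knockdown (squares), with the mean and SD of each group as a black bar (n = 3). Each axis starts at 0 and has its own scale, and in all 5 panels the groups are apart.

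Beyond the called genes, more members lay apart between the groups than passed the test. In 24 of the 57 tested members, 42.1%, the groups did not overlap, against 24.6% of all tested genes. Of these, 9 were higher after Mad knockdown (15.8%, background 11.6%) and 15 lower (26.3%, background 13%). An unadjusted p under 0.05 in limma was reached by 24 members as well (42.1%, background 19%), 9 of them higher (15.8%, background 8.31%) and 15 lower (26.3%, background 10.7%). An absolute change of at least 1 on the log2 scale was seen in 10 members (17.5%, background 6.22%). Cyp309a1, which had to differ to be tested, is in each of these totals and in the counts of 9 higher. The median log2 fold change over the tested members was -0.23, against 0.0054 over all tested genes, and 36 of 57 members were below 0 (63.2%, background 48.9%). That median was -0.11 without control replicate 3, -0.12 without Mad knockdown replicate 1 and -0.14 after quantile normalization. By clan, 15 of 26 tested CYP3 genes, 13 of 21 CYP4 genes, 6 of 7 mitochondrial genes and 2 of 3 CYP2 genes had a log2 fold change below 0. After quantile normalization Cyp4g1, Cyp4g15 and Cyp28d1 changed sign, which left 33 of 57 below 0, with 14 in the CYP3 and 11 in the CYP4 clan. CYP3 genes had the widest range, from -2.83 to 3.11, while CYP4 genes ran from -1.19 to 0.79.

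**Figure D3:**
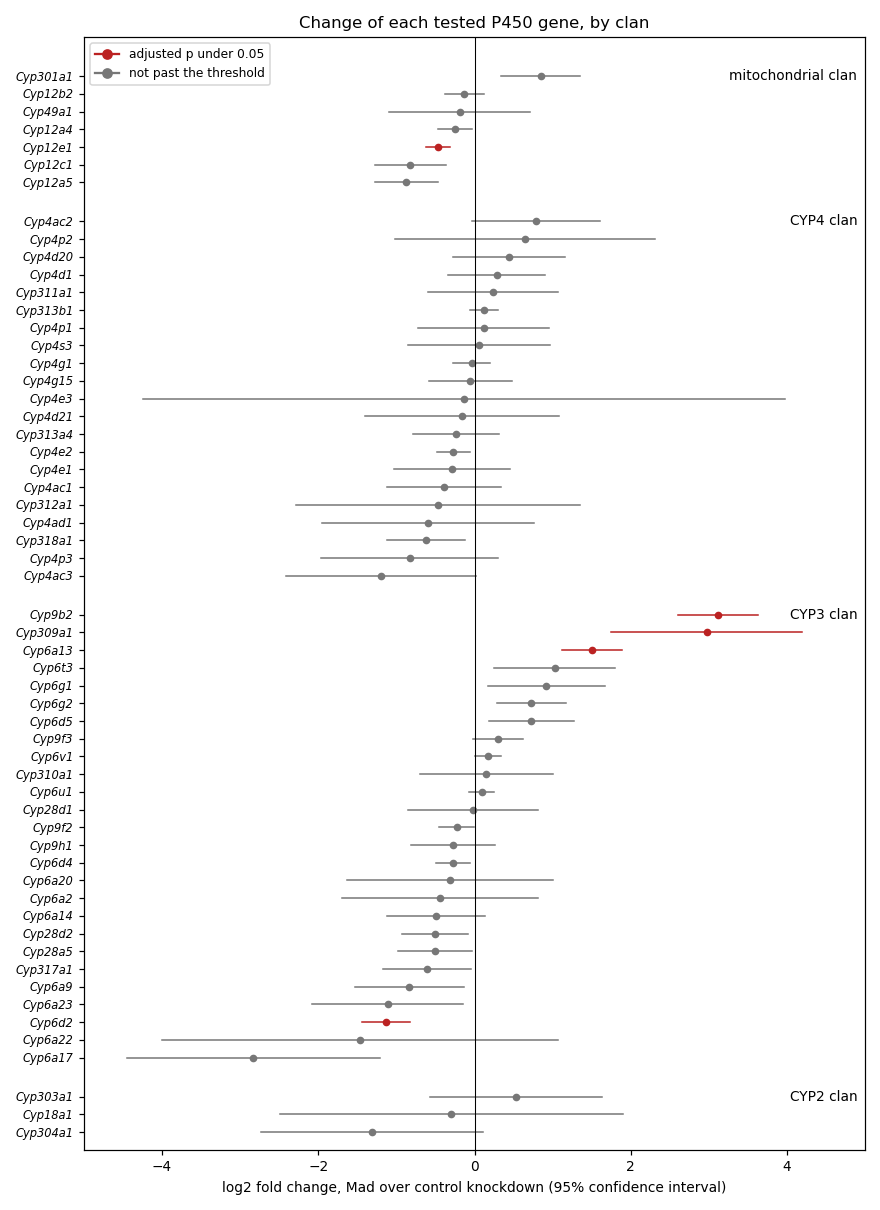
Log2 fold change of Mad knockdown over control knockdown of the 57 tested P450 genes with its 95% confidence interval from limma, grouped by clan and sorted within each clan, with red for genes at an adjusted p under 0.05. The 3 called genes that rose and 1 of the 2 that fell are in the CYP3 clan, which holds 26 of the 57 tested genes. Of the 3 that rose, Cyp309a1 passed the filter only through the Mad knockdown libraries. The intervals of Cyp4e3, Cyp18a1 and Cyp312a1 are wide.

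Of the 7 mitochondrial P450 genes, 6 had a log2 fold change below 0 (background 48.9%). limma called Cyp12e1 alone (background 2.59%), while DESeq2 called Cyp12e1, Cyp12a5, Cyp12c1 and Cyp301a1 (background 9.64%). Cyp12a5 had 1363, 1346 and 1878 normalized counts in controls and 914, 690.1 and 886 after Mad knockdown, without overlap. Its log2 fold change was -0.87 (SE 0.169, adjusted p 0.0530 in limma), just outside the threshold, and it was called by DESeq2 at 6.3e-05 and with robust fitting at 0.0435. Cyp12a4, its tandem neighbour, whose overexpression gives resistance to the insecticide lufenuron, was at 1331 ± 97.6 and 1117 ± 77.0, at -0.25 (SE 0.0893, adjusted p 0.199). Cyp12c1 had 774, 748 and 818 normalized counts in controls and 326, 539 and 486 after Mad knockdown. These groups were also apart, at -0.82 (SE 0.189), with an adjusted p of 0.0780 in limma and 0.0017 in DESeq2. Cyp12b2 was at 3387 ± 348 and 3093 ± 280.4, at a log2 fold change of -0.13 (SE 0.102). Cyp49a1 was at 24.2 ± 9.10 and 20.3 ± 3.21, at -0.19 (SE 0.377). The groups overlapped in both genes. Cyp301a1, needed for the adult cuticle, differed from the rest of its clan in sign. Its 86.6, 130.0 and 82.0 normalized counts in controls stood below 167, 169.6 and 191 after Mad knockdown, at a log2 fold change of 0.84 (SE 0.212, adjusted p 0.0941 in limma and 0.0186 in DESeq2).

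Hormone metabolism was covered by Cyp18a1, which inactivates 20-hydroxyecdysone by oxidation at its side chain, and by Cyp6t3, implicated in ecdysteroid synthesis. Cyp18a1 (FBgn0010383, chromosome X, 18688538 to 18693042) had 4354, 6809 and 17619 normalized counts in controls and 1765, 7966 and 20031 after Mad knockdown. The spread inside each group was several fold and the groups overlapped fully. Its log2 fold change was -0.30 (SE 0.917), with a 95% confidence interval of -2.49 to 1.89, so changes of several fold in either direction were not detectable. Cyp6t3 had 58.6, 116 and 58.3 normalized counts in controls and 196, 136 and 129 after Mad knockdown, without overlap, at 1.03 (SE 0.325, adjusted p 0.161 in limma). The ecdysteroid list also holds the Halloween genes, which encode steps of ecdysone synthesis. Of 9 listed genes found in the table, 7 were tested and none was called. The terminal hydroxylase gene shd, which acts in peripheral tissues, was at 10396, 9076 and 4858 in controls and 14269.6, 18599 and 9216 after Mad knockdown. These ranges overlapped, and its log2 fold change was 0.81 (SE 0.351, adjusted p 0.283). The prothoracic gland gene dib was at 0 in all controls and in Mad knockdown library 1, and at 28.1 and 1.01 in libraries 2 and 3. In the same gland list, spok was at 9.76, 13.5 and 9.12 in controls and 5.60, 141 and 16.1 after Mad knockdown. sad had 162, 111 and 104 in controls and 226, 297 and 167 after Mad knockdown, without overlap. Its log2 fold change was 0.86 (SE 0.268, adjusted p 0.157 in limma). phm overlapped, at 88.5 ± 37.4 and 80.2 ± 58.0.

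Cuticular hydrocarbons need Cyp4g1, the oenocyte decarbonylase. Cyp4g1 (FBgn0010019, chromosome X, 467057 to 469335) had 73617, 60562 and 73144 normalized counts in controls and 63726, 68103 and 69623 after Mad knockdown. The groups overlapped, and the log2 fold change was -0.04 (positive under 4 of 18 alternatives) with a 95% confidence interval of -0.27 to 0.20, which excludes a change of the size seen in the called genes. No gene was called among the 5 of this list found and tested: Cyp4g1, the reductase gene Cpr, FarO, FASN2 and spidey. FarO, an oenocyte marker, was at 16575 ± 228 and 16532 ± 2007.

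Of 10 listed genes linked to insecticides, 7 were tested. limma called Cyp9b2 alone (background 2.59%), while DESeq2 also called Cyp6g1 and Cyp6g2 (background 9.64%). Cyp6g1, whose overexpression gives resistance to DDT and neonicotinoids, had 226, 154 and 328 normalized counts in controls and 502, 311.04 and 493 after Mad knockdown. The highest control exceeded the lowest Mad knockdown library, so the groups overlapped. Its log2 fold change was 0.92 (SE 0.314, adjusted p 0.188 in limma), and DESeq2 called it at 0.0461. Cyp6g2 had 103, 115.5 and 122 in controls and 220.5, 199.5 and 151 after Mad knockdown, without overlap, at 0.73 (SE 0.186, adjusted p 0.0967 in limma and 0.0196 in DESeq2). Cyp6a2, long studied for its induction by phenobarbital, was at 124 ± 81.2 and 81.3 ± 26.7, within its error, and Cyp6a9 at 119 ± 43.0 and 64.7 ± 11.6, with an adjusted p of 0.196. Cyp6a8 and Cyp6w1, abundant in some resistant strains, reached at most 8.06 and 2.44. Of the copies outside the naming rule, Cyp12d1-p was at 32.8 ± 11.3 and 20.5 ± 9.44.

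Other abundant CYP3 genes were not called by limma, and of these DESeq2 called Cyp6d5. Cyp6d5 had 4952, 3956 and 3392 normalized counts in controls and 6033, 9251 and 5408 after Mad knockdown, above every control. Its log2 fold change was 0.73 (SE 0.226, adjusted p 0.154 in limma and 0.0111 in DESeq2). Cyp6d4 had 1616, 1612 and 1694 in controls and 1251, 1523 and 1298 after Mad knockdown, at -0.28 (SE 0.0908, adjusted p 0.172). Cyp6d2, Cyp6d4 and Cyp6d5 thus differed in sign within one subfamily. Cyp6v1 was at 3897 ± 77.8 and 4407 ± 316.6, with exons of an antisense RNA gene covering 18.4% of its exons. Cyp6u1 was at 2318 ± 71.7 and 2468 ± 127, Cyp9f2 at 1870.0 ± 213 and 1589.9 ± 38.2, and Cyp9f3 at 364 ± 44.9 and 447 ± 46.4. None of these 4 was called, at log2 fold changes from -0.23 to 0.30. Lower in level, Cyp28d2 had 216, 243 and 168 in controls and 162, 139.7 and 136 after Mad knockdown, and Cyp28a5 had 159, 157 and 221 against 107, 122 and 144. Both were apart between groups, at -0.50 (SE 0.179) and -0.51 (SE 0.199), with adjusted p-values of 0.199 and 0.234 in limma. Cyp28d1, induced by nicotine in flies, was at 86.8 ± 37.2 and 80.6 ± 11.5, Cyp9h1 at 125 ± 35.4 and 101 ± 7.17, and Cyp310a1 at 119.9 ± 11.1 and 144 ± 67.4.

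CYP4 genes gave no call. Cyp4e2, the most abundant of the clan per kilobase after Cyp4g1 and Cyp313b1, had 7458, 7735 and 8680.5 normalized counts in controls and 7138, 6598 and 6051 after Mad knockdown. Its groups were apart at a log2 fold change of -0.27 (SE 0.0878, adjusted p 0.169 in limma). Cyp318a1 had 203, 189 and 203 in controls and 117, 172 and 105 after Mad knockdown, also apart, at -0.62 (SE 0.208, adjusted p 0.178). Cyp313b1 overlapped between groups, with 8529.5, 9899.9 and 9388 in controls and 9780.2, 9862 and 10539 after Mad knockdown. Its log2 fold change was 0.12, with a 95% confidence interval of -0.05 to 0.29. Cyp4g15, known from the nervous system, was at 46.8 ± 6.14 and 44.8 ± 3.96, and Cyp311a1, known from midgut lipid metabolism, at 63.1 ± 28.1 and 69.6 ± 7.19. The remaining scarce members of the clan, Cyp4d1, Cyp4d20, Cyp4d21, Cyp4e1, Cyp4ad1, Cyp4s3 and Cyp313a4, had log2 fold changes from -0.60 to 0.45 and adjusted p-values of at least 0.491.

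P450 genes often lie in tandem arrays, and 45 of the 80 members fell into 16 clusters when genes at most 20 kb apart were joined, a distance chosen after the values were known. Chromosome arm 2R held 31 members, 25 of them tested. The largest cluster, on 2R from 14871366 to 14903095, held 8 members in the order Cyp6a22, Cyp6a17, Cyp6a23, Cyp6a19, Cyp6a9, Cyp6a20, Cyp6a8 and Cyp317a1. All 6 tested genes of it had a log2 fold change below 0 (background 48.9%), and none was called by limma with all 6 libraries. Among these 6, Cyp6a22 and Cyp6a20 were near the floor, at 0 to 17.1 and 5.44 to 20.1 normalized counts. Their log2 fold changes were -1.47 (SE 1.06) and -0.32 (SE 0.553), with 95% confidence intervals that included 0. Cyp6a17, required in the mushroom body for temperature preference, had 1542, 2094 and 2349 normalized counts in controls and 95.3, 293 and 738 after Mad knockdown. The highest Mad knockdown library was thus below the lowest control, and the ratio of means was 0.188. limma gave -2.83 on the log2 scale (SE 0.677) and an adjusted p of 0.0848, which became 0.0376 at -3.55 without Mad knockdown replicate 3 and 0.0263 in DESeq2. Cyp6a23, the next gene on the same strand, had 192, 157 and 265 in controls and 63.5, 71.6 and 170.2 after Mad knockdown, with Mad knockdown library 3 above the lowest control. limma gave a log2 fold change of -1.11 (SE 0.404, adjusted p 0.211). In both genes Mad knockdown library 3 was the highest of its group, the library in which midgut markers were also high. The same held for the called genes Cyp9b2, Cyp6a13 and Cyp12e1, but not for Cyp309a1 and Cyp6d2. In Cyp12e1 the difference was small, at 3682, 3616 and 3744 in Mad knockdown libraries 1 to 3. How often library 3 was the highest over all tested genes was not counted. A link to the midgut markers was not tested. Whether reads were shared between these related genes was not tested. Cyp317a1 was at 140.0 ± 24.4 and 92.4 ± 21.9, with exons of Kank on the opposite strand, at 2545 to 4671 normalized counts, covering 32.6% of its exons.

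A cluster on 2R from 12185667 to 12192436 went the other way. Its 3 genes, Cyp6g1, Cyp6g2 and Cyp6t3, described above, all had a log2 fold change above 0, from 0.73 to 1.03, and none was called in limma. Exons of Cyp6g1 and Cyp6g2 on opposite strands overlap by 4.53% of Cyp6g1 and 4.73% of Cyp6g2. Of the other arrays with more than 1 tested gene, Cyp4ad1, Cyp4e2 and Cyp4e1 were all below 0, as were the pairs Cyp12a5 and Cyp12a4 and Cyp28d2 and Cyp28d1 (Cyp28d1 was above 0 after quantile normalization), and the rest held both signs. In the trio on 2L, Cyp4ac1 had a log2 fold change of -0.39 (SE 0.307), Cyp4ac2 of 0.79 (SE 0.342) and Cyp4ac3 of -1.19 (SE 0.51). Cyp4p2, Cyp4p1 and Cyp4p3 on 2R had 0.64 (SE 0.697), 0.12 (SE 0.352) and -0.83 (SE 0.474). None of these 6 was called.

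**Figure D4:**
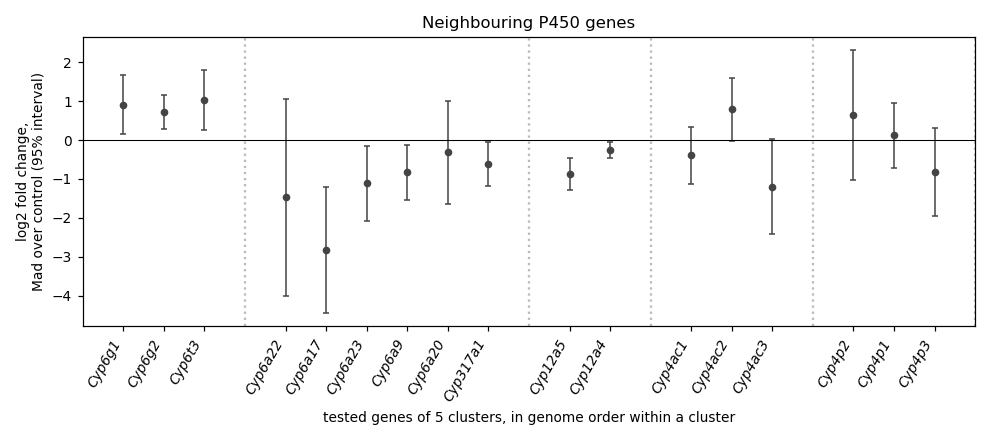
Log2 fold change of Mad knockdown over control knockdown with its 95% confidence interval for the tested genes of 5 P450 clusters, in genome order within each cluster and with dotted lines between clusters. All 3 genes of the Cyp6g1 cluster lie above 0 and all 6 of the Cyp6a17 cluster below. The intervals of Cyp6a22 and Cyp6a20 include 0. None of the genes plotted was called by limma with all 6 libraries, while DESeq2 called Cyp6g1, Cyp6g2, Cyp6a17 and Cyp12a5.

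Spread inside a group was wide for many members. The highest library exceeded the lowest by more than 2-fold, or a library was at 0, in 17 of 57 tested members in controls (29.8%, background 12.8%) and in 14 after Mad knockdown (24.6%, background 13.7%). Cyp312a1 had 5439.9, 5449 and 10205 normalized counts in controls and 1351, 10695 and 7912 after Mad knockdown, with Mad knockdown library 1 the lowest of the 6, as it was for Cyp18a1. Cyp4p2 had 2799, 1679.8 and 363 in controls and 2283, 1661 and 1717 after Mad knockdown, so that 1 control library stood below the others. Cyp4ac3 ran from 72.9 to 297 in controls and from 47.6 to 86.6 after Mad knockdown. In Cyp4e3, linked to permethrin tolerance in Malpighian tubules, control library 3 alone held 236 normalized counts, against 2.44 and 5.201 in the other controls and 25.2, 2.72 and 38.3 after Mad knockdown. For such genes the 3 libraries of a group cannot resolve a change of 2-fold: the 95% confidence interval of Cyp4e3 ran from -4.24 to 3.97 on the log2 scale. Cyp304a1, with 26.8, 83.2 and 18.2 in controls and 13.1, 9.98 and 18.1 after Mad knockdown, was apart between groups by a margin of less than 1 count, at an adjusted p of 0.301 in limma.

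**Figure D5:**
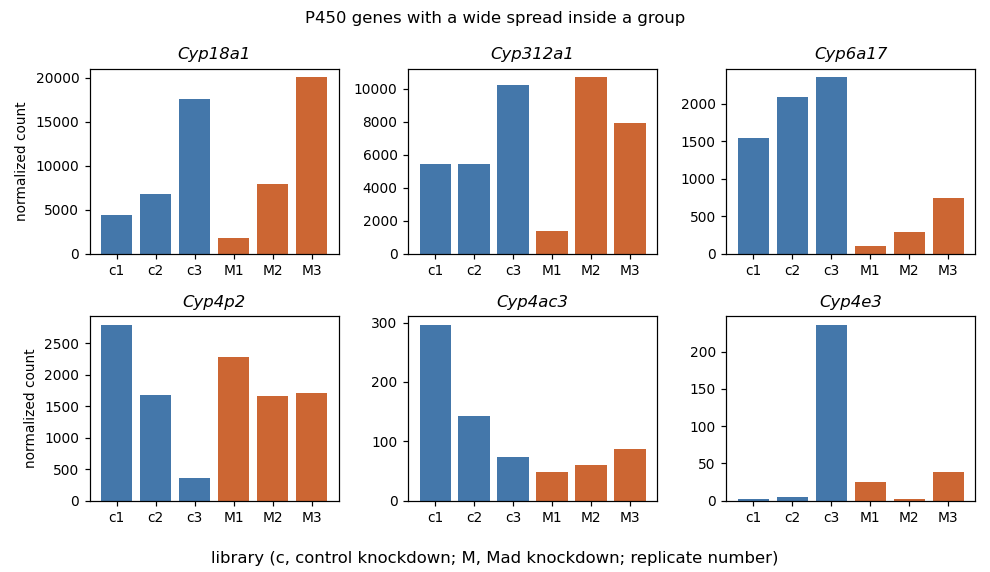
Normalized counts of 6 P450 genes with a wide spread inside a group, one bar per library, for control knockdown libraries c1 to c3 and Mad knockdown libraries M1 to M3, each axis starting at 0. Cyp18a1 and Cyp312a1 overlap between groups, Cyp6a17 does not, and Cyp4e3 is high in control library 3 alone.

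The scarcest members were at the edge of detection. Members were ranked by the highest level that 3 libraries reached. Just inside the threshold were Cyp6a22 and Cyp4s3, both at 14.1, and Cyp6a20, linked to aggression in males, at 14.6. Just outside were Cyp313a1 at 8.32, Cyp4d8 at 8.16 and Cyp4c3 at 6.35. Of the 23 members below the threshold, 6 were at 0 in all libraries: Cyp316a1, Cyp4d14, Cyp4d2, Cyp6a16, Cyp6a18 and Cyp9c1. Exons of genes on the opposite strand cover 97.2% of the exons of Cyp4d14, 98.7% of Cyp4d2 and 98.2% of Cyp9c1, and the part of read assignment in their 0 was not tested. In 12 no library reached 10, and in 5 only 1 or 2 libraries did, with a highest value of 24.2 in Cyp313a1. Cyp303a1, needed for sensory bristles, was tested at 21.7 ± 8.18 and 31.97 ± 12.5, but exons of heix on the opposite strand, at 2017 to 2633 normalized counts, cover 33.0% of its exons.

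P450 enzymes depend on electron donors, and none of 6 tested donor genes was called. Cpr, the reductase of microsomal P450 enzymes, was at 13591 ± 378 and 14172 ± 1651, with a log2 fold change of 0.05 (SE 0.0910). Cyt-b5 was at 6894 ± 347 and 7286 ± 103. For the mitochondrial enzymes, the adrenodoxin reductase gene dare was at 1521 ± 174 and 1369 ± 77.5, Fdx1 at 205 ± 24.2 and 170.1 ± 34.9, and Fdx2 at 1659.5 ± 148 and 1924 ± 37.8. Regulators of detoxification genes gave no call among 6 tested. The oxidative stress factor gene cnc had 67443, 73121 and 64073 normalized counts in controls and 91083, 83482 and 78128 after Mad knockdown, without overlap, at 0.30 (SE 0.0913, adjusted p 0.146 in limma). Keap1, which encodes its inhibitor, was at 1974 ± 239.6 and 2434 ± 309.2, and the nuclear receptor gene Hr96 at 1753 ± 229 and 1997 ± 52.5. The list of 5 genes known from behaviour or the nervous system held Cyp6a17, Cyp6a20, Cyp6a23, Cyp4g15 and Cyp4d21. This list and the pair known from cuticle and bristles (Cyp301a1 and Cyp303a1) held no gene called by limma. DESeq2 called Cyp6a17 and Cyp301a1 (background 9.64%).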

How the data were processed

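Polyadenylated RNA of 6 pooled larval muscle-enriched samples was sequenced, 3 per group. The authors deposited a normalized signal with 1 column per library, from which size factors of 0.820 to 1.10 were read. Every value was a whole multiple of 1 step within a tolerance of 0.001 (100% of values), so counts were recovered from the deposited signal. The build was dm6, per the submitters' processing notes. The aligner, counter, annotation and strand setting are not given in the sources used here. Coordinates and exon lengths are from the Ensembl annotation on the same assembly.

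log2(normalized count + 1) of the 10348 genes with at least 10 in at least 3 libraries was fitted with limma 3.58.1 in R 4.3.3 (trend, two-sided, no covariate), and genes were called at a Benjamini-Hochberg adjusted p under 0.05 over all of them. Fold changes on this scale understate those of low genes. edgeR 4.0.16 and DESeq2 1.42.0 were run on recovered counts, where edgeR called 252 genes. The steps were tested on simulated data with 200 changed genes. There, unchanged genes made up 5.16% of the limma calls, 4.55% of the edgeR calls and 17.4% of the DESeq2 calls. The genes named in detail are Mad, all called members, the next 10 by p, the 5 highest per kilobase and those nearest the threshold; others were chosen after their values were seen. The members, gene lists and tests were chosen with earlier results of these data known. Marker and role lists came from general knowledge, and names not found under the written spelling were left out.

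Alternatives changed the pseudocount, filter, normalization, variance model, tool, threshold and replicate block, and left out each library.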

Additional observations from a re-analysis of the deposited data

How the results depend on the processing

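The count of 5 called P450 genes was 12 in DESeq2, 2 with a replicate block and 2 at an adjusted p under 0.01, and ran from 2 to 5 in the fits without 1 library. Over all genes the count of 268 became 138 without a trend, 998 in DESeq2, 117 with a replicate block, 49 at an adjusted p under 0.01, 116 when a 2-fold change was also required, and ran from 43 to 193 without 1 library. Mad kept its direction but not its call without a trend (log2 fold change -0.57), in edgeR (-0.55), with a replicate block (-0.57) and in 5 of 6 fits without 1 library (-0.66 to -0.47 over all 6). Both groups carry replicate numbers 1 to 3, but same-numbered libraries deviated from their group means with correlations of -0.14, -0.066 and 0.037, so they were not taken as pairs. With the block, Cyp9b2 and Cyp6a13 were called, and the calls of Cyp6d2 (adjusted p 0.0607), Cyp12e1 (0.0609) and Cyp309a1 (0.0970) were lost. The log2 fold change of Cyp4g1, -0.04, changed sign to 0.0028 after quantile normalization and ran from -0.13 to 0.012 without 1 library; that of Cyp18a1, -0.30, became 0.057 in edgeR and 0.048 in DESeq2 and ran from -1.10 to 0.65. Neither gene was called in any fit. The log2 ratio of the summed P450 counts was 0.012 and ran from -0.059 to 0.10 over its 8 alternatives. The other alternatives gave 4 to 6 called P450 genes. The cause was not tested for any of these. Cyp309a1 could not be fitted without any 1 Mad knockdown replicate or at a mean of at least 50, since it then failed the filter.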
